A study of Homo sapiens with 2 samples.

Results

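The clustered protocadherin genes are the members described here. They are the 53 protein-coding RefSeq genes on chromosome 5 whose symbols begin with PCDHA, PCDHB or PCDHG and go on with a digit or a letter, of 20037 protein-coding genes in all. They form 3 neighbouring clusters, named alpha with 15 genes, beta with 16 genes and gamma with 22 genes. Chromatin of A549 cells, an established human lung adenocarcinoma line, was studied by ChIP-seq. The cells carried an shRNA against ETV4 and were transfected to make ETV4 with a Flag tag, so the protein mapped is the tagged, reintroduced one. The series holds 1 immunoprecipitate made with an antibody to the Flag tag and 1 input library of A549 chromatin that received no antibody. The authors' list of peaks of the immunoprecipitate was used, in which the input enters as the control. With 1 library there is no replicate, so no difference between conditions could be tested, and the intervals given below cover counting error only.

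Protocadherins are cell adhesion proteins of the cadherin superfamily. The clustered ones are best known from neurons, where each cell turns on its own small set of them, and the set serves as a label by which a neuron tells its own branches from those of other cells. In the alpha and gamma clusters every gene has its own promoter and its own large first exon, which codes for the extracellular and membrane-spanning parts, and that exon is spliced to short constant exons shared by the whole cluster, so that all alpha genes end at the same place and all gamma genes end at the same place. Beta genes have no shared constant exons. Most promoters carry a conserved element with the letters CGCT at its core. Such promoters are bound by CTCF, the insulator protein that joins a chosen promoter to its enhancer. The last genes of the alpha and gamma clusters, called C-type, differ in their regulation and are expressed more widely across neurons than the others, which are picked at random. ETV4 is a transcription factor of the ETS family, whose members recognise DNA with the core GGAA.

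The clusters held 14 distinct ETV4 binding peaks of the 54389 in the list, counted once each although most of them lie inside several overlapping genes. The alpha cluster (chr5:140786140-141012347, hg38) had 6 peaks, the beta cluster (chr5:141051374-141249365) had 2 and the gamma cluster (chr5:141330514-141512975) had 6. A margin of 1 kb on each side of a cluster was searched as well and added none. The nearest peaks outside lay 7.92 kb above the gamma cluster and 9.30 kb below it, and the nearest one below the alpha cluster was 66.7 kb away. Because a peak inside the alpha or gamma cluster falls within the outer bounds of up to 22 genes, a peak was given to a gene only when its interval came within 1 kb of the 5′ end of that gene.

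**Figure D1:**
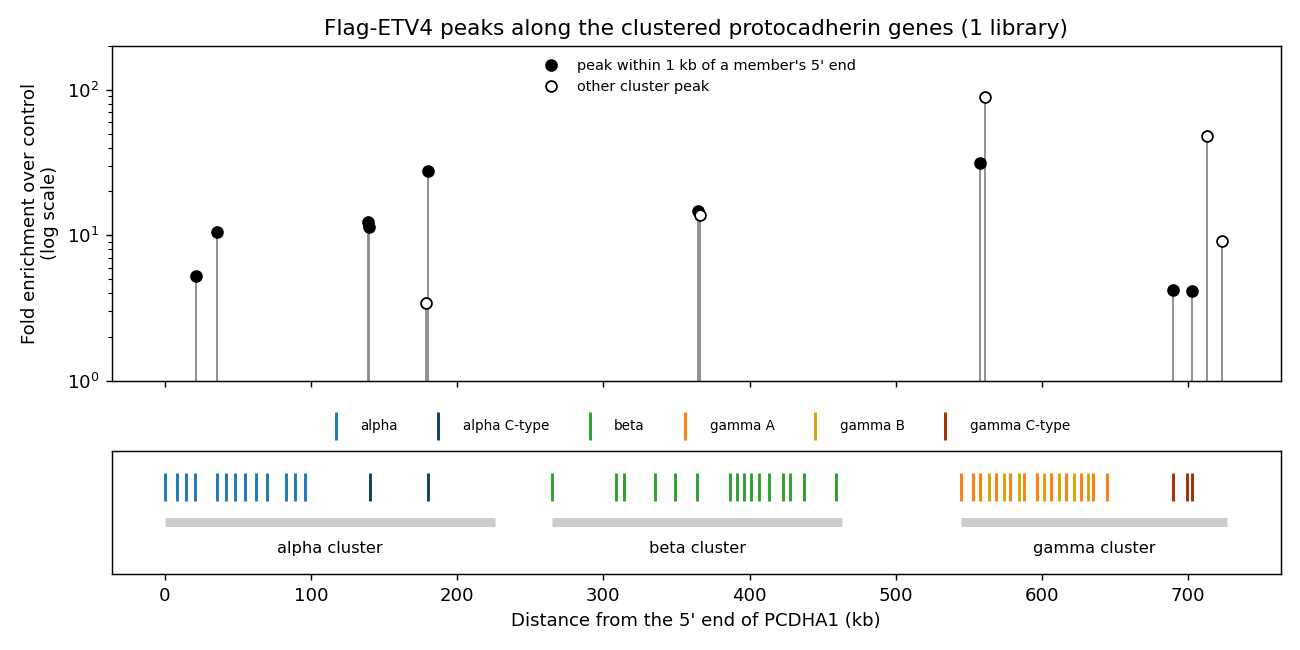
Fold enrichment of the 14 cluster peaks (upper panel, log axis) against the distance of the summit from the 5′ end of PCDHA1 in kb, with the 5′ ends of the 53 genes as ticks and the clusters as grey bars (lower panel). Peaks stand at few of the ticks, and the 2 highest, with fold enrichments of 88.9 and 48.4, are open symbols in the gamma cluster, away from 5′ ends.

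A peak came within 1 kb of the 5′ end in 8 of the 53 genes (15.1%, Wilson 95% confidence interval 7.85% to 27.1%), against 61.3% of the 15842 protein-coding genes whose strand is given in the RefSeq promoter table. The genes with a peak were PCDHA4, PCDHA5, PCDHAC1 and PCDHAC2 in the alpha cluster, PCDHB6 in the beta cluster, and PCDHGA3, PCDHGC3 and PCDHGC5 in the gamma cluster. All of them code for protocadherins, which differ in the extracellular part by which they pair. The share was below the background, and it was low in every cluster, with 4 of 15 alpha genes, 1 of 16 beta genes and 3 of 22 gamma genes. On chromosome 5 as a whole, 60.1% of the protein-coding genes had such a peak, close to the share of all chromosomes. Counting only the 47 members whose strand is in that table, 6 had a peak (12.8%). Taking either end of a gene into account gave 8 members as well, beside 62.1% of all 20037 protein-coding genes, and a required fold enrichment over 10 left 5 members, beside 44.5% of the genes with a known strand.

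The peaks were not spread evenly over the kinds of gene. Of the 5 C-type genes, 4 had a peak at the 5′ end (80.0%, Wilson interval 37.6% to 96.4%), and the exception was PCDHGC4. Of the other 48 genes, 4 had such a peak (8.33%, 3.29% to 19.6%). The interval of the C-type genes includes the 61.3% of all protein-coding genes with a known strand, whereas that of the others lies below it. Both alpha C-type genes and 2 of the 3 gamma C-type genes were in the former group. By contrast, the ordinary alpha genes had a peak at 2 of 13, the beta genes at 1 of 16, the gamma A genes at 1 of 12 and the gamma B genes at 0 of 7. The members of a cluster are neighbours and are not independent of each other, so these intervals are a guide to the precision and not a test. Pooling the C-type genes of both clusters against the others was not planned. The count at C-type genes also rested in part on weak peaks, since only PCDHAC1 and PCDHAC2 remained when a fold enrichment over 5 was required, whereas all 4 other genes remained. The share of all genes at that threshold was not computed. With a fold over 10, 2 of the 5 C-type genes remained, beside 44.5% of all protein-coding genes with a known strand.

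**Figure D2:**
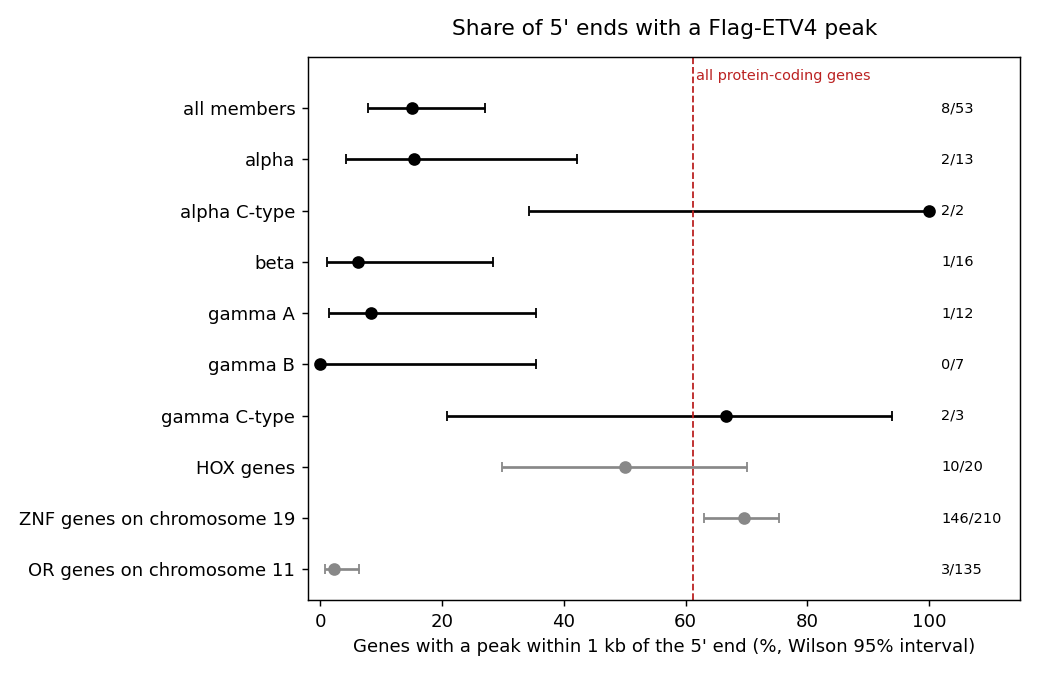
Percentage of genes whose 5′ end had a peak within 1 kb (x axis), with Wilson 95% intervals as bars and the counts at the right, for all members, the 6 kinds of member gene (black) and 3 other tandem gene families (grey). The dashed line marks the 61.3% of all protein-coding genes, and the alpha and gamma C-type genes are the only members whose intervals reach it.

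The sequences below are the stretches of 181 bases centred on the summits at C-type promoters that the RefSeq promoter windows hold in full (GRCh38.p14, plus strand). They are shown because these summits fall within a promoter window, unlike that of PCDHGA3, and PCDHGC4, the C-type gene without a peak, is set beside them. PCDHGC4 has no summit, so its stretch is the last 181 bases of its window. Capitals mark every GGAA and its reverse complement TTCC, and the summit is at the middle base of each of the first 3.
PCDHAC1: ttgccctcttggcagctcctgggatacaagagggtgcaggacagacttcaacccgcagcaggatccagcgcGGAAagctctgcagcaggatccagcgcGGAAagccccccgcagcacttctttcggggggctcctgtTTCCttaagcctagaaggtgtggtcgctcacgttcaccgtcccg
PCDHAC2: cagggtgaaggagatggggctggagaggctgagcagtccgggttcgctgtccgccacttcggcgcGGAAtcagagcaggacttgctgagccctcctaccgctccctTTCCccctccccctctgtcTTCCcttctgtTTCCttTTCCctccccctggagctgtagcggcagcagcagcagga
PCDHGC3: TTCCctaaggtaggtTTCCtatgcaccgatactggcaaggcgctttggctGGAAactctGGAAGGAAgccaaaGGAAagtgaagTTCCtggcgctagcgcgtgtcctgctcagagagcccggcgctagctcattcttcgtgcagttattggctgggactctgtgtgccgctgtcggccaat
PCDHGC4: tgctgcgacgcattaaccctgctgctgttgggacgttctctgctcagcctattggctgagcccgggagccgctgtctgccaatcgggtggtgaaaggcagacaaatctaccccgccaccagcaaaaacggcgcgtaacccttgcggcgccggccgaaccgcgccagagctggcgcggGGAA
The windows are chr5:140926075-140926255 for PCDHAC1, chr5:140966337-140966517 for PCDHAC2, chr5:141475729-141475909 for PCDHGC3 and chr5:141484899-141485079 for PCDHGC4. The ETS core was found 3 times in the PCDHAC1 stretch, 5 times in that of PCDHAC2 and 7 times in that of PCDHGC3, on either strand and counting overlaps, and once in that of PCDHGC4. The count depends on where the stretch lies, as the whole promoter window of PCDHGC4 had 4 cores, the same number as that of PCDHAC1. From the summit to the nearest core there were 8 bases in PCDHAC1, 16 in PCDHAC2 and 3 in PCDHGC3. In PCDHAC1, the run gcagcaggatccagcgcGGAAagc of 24 bases occurs 2 times in the stretch, each copy with a core in it. These are matches of letters and not mapped sites, as GGAA is present in 95.2% of all protein-coding promoter windows.

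PCDHAC2, the last gene of the alpha cluster, had the strongest peak of any C-type gene. This peak, chr5:140965869-140966903, covered the 5′ end of the gene, with its summit 49 bp upstream, in the stretch shown above. It was enriched 27.9-fold over the control. Its summit pileup, the number of fragments stacked at the summit, was 67 with an exact Poisson 95% interval of 51.9 to 85.1, where the control level was 1.44. A lesser peak lay next to it on the upstream side (chr5:140964819-140965357), 1119 bp from the 5′ end and so outside the limit of 1 kb. That peak had the lowest fold enrichment of the 14, 3.43, with a pileup of 14 fragments (7.65 to 23.5).

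PCDHAC1, the other alpha C-type gene, was the only member with 2 peaks within 1 kb of its 5′ end. The one across the 5′ end (chr5:140926054-140927194) was enriched 11.3-fold with 25 fragments (16.2 to 36.9) and had its summit 134 bp upstream. The one on the upstream side (chr5:140924936-140925399) was enriched 12.3-fold with 27 fragments (17.8 to 39.3) and had its summit 1170 bp upstream. The intervals of the pileups overlap, so the pair cannot be ranked. Both were near the median of all peaks, which was 26 fragments and a fold enrichment of 9.63.

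The gamma C-type peaks were weak. At PCDHGC3 (chr5:141475716-141476233) the fold enrichment was 4.21 and the pileup 16 fragments (9.15 to 26.0) over a control of 3.04, with the summit 147 bp upstream. At PCDHGC5 (chr5:141488740-141489020), the last gene of the gamma cluster, the fold enrichment was 4.16 and the pileup 13 fragments (6.92 to 22.2), with the summit 184 bp upstream. These stood at percentiles 8.77 and 8.52 of all peaks by fold enrichment. PCDHGC4, which lies between them, had its nearest peak 3710 bp away.

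Among the other genes, PCDHGA3 of the gamma cluster had the strongest peak at a 5′ end of any member. The peak (chr5:141343795-141344462) covered the 5′ end, was enriched 31.5-fold and had 119 fragments at its summit (98.6 to 142), which was 267 bp inside the gene. In PCDHB6, the only beta gene with peaks, a peak beginning 455 bp inside the gene (chr5:141150512-141151147) was enriched 14.6-fold with 48 fragments at its summit (35.4 to 63.6). A second peak (chr5:141152361-141152770) lay further inside the same gene, 2493 bp from the 5′ end by its summit, with a fold enrichment of 13.8. PCDHB6 is 3.23 kb long, so both beta peaks lay within the bounds of this single gene, toward either end of it.

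The remaining pair belonged to ordinary alpha genes near the start of that cluster. PCDHA5 had a peak (chr5:140821620-140822218) enriched 10.5-fold with 35 fragments (24.4 to 48.7), whose summit was 246 bp inside the gene. PCDHA4 had one (chr5:140807051-140807414) enriched 5.26-fold with 11 fragments (5.49 to 19.7), the lowest pileup of the 14, whose summit was 173 bp inside. The pileup intervals of these neighbours did not overlap. At genes with a peak, the median fold enrichment of the strongest one was 11.4 over the 8 members, against 17.5 over the 9716 protein-coding genes with a peak.

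**Figure D3:**
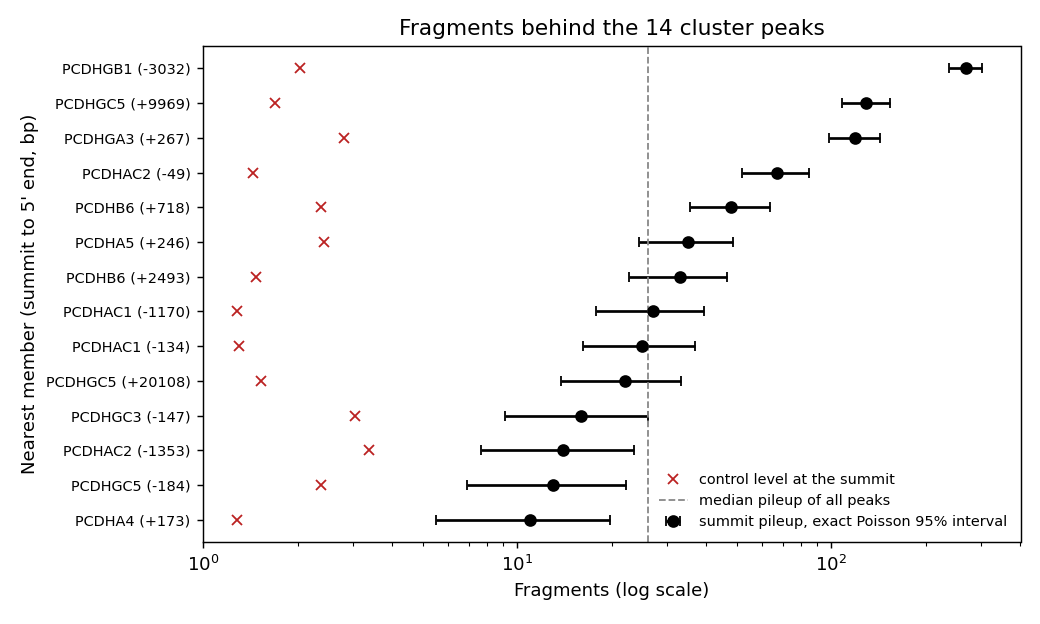
Summit pileup in fragments (log axis) of the 14 cluster peaks, with exact Poisson 95% intervals, beside the control level at each summit (crosses). Each row is named by the nearest member and the distance of the summit from its 5′ end in bp, and the dashed line at 26 fragments is the median of all peaks. The pileups run from 11 to 268 fragments, whereas the control levels stay between 1.28 and 3.38. The level of 1.28, at PCDHA4 and at the upstream PCDHAC1 peak, is also the lowest control level over all peaks.

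The side of the 5′ end on which a summit lay differed between the 2 kinds of gene. All 5 peaks at C-type genes had their summit upstream, and all 4 peaks at the other genes had it inside the gene. Over all pairs of a peak and a protein-coding gene within 1 kb of each other, 37.9% of 10413 summits were upstream. With 9 peaks in all, this is a description of single peaks.

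**Figure D4:**
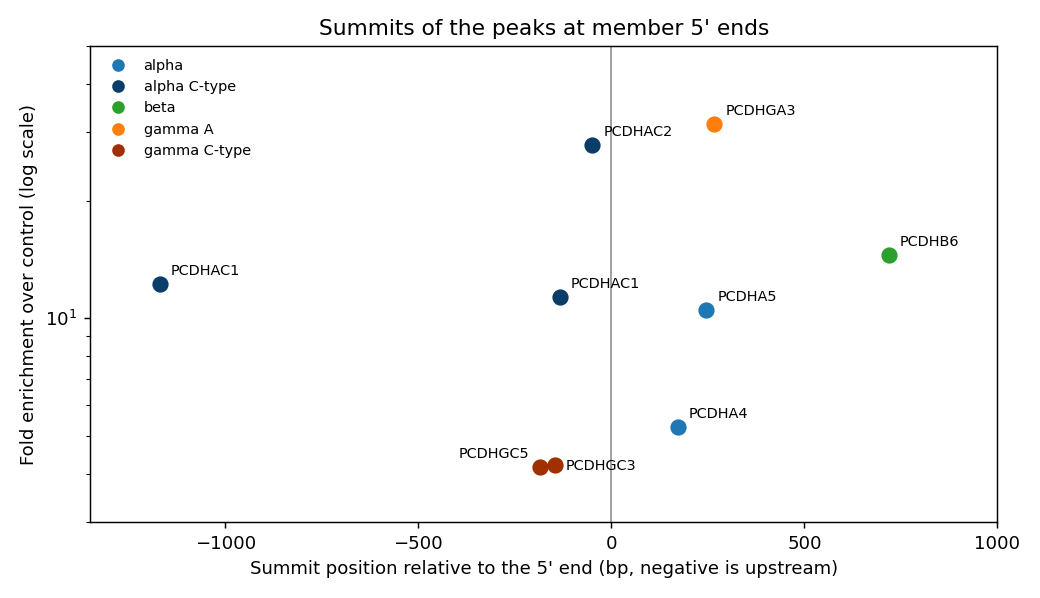
Fold enrichment (log axis) of the 9 peaks within 1 kb of a member's 5′ end against the position of the summit relative to that end in bp, where negative values are upstream. The C-type genes lie left of the line at 0 and the other genes right of it.

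The 5 cluster peaks away from 5′ ends included the strongest ones. The highest fold enrichment in the clusters, 88.9, belonged to a peak (chr5:141346616-141347503) between the 5′ ends of PCDHGA3 and PCDHGB1, with its summit 3032 bp before the latter. Its pileup was 268 fragments (237 to 302) over a control of 2.03, which placed it at the 98.6th percentile of all peaks by fold enrichment. It lies within the outer bounds of 3 members, PCDHGA1, PCDHGA2 and PCDHGA3. Together with the PCDHGA3 peak it made the strongest stretch of the locus.

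The next highest peak (chr5:141498756-141499302) was in the last part of the gamma cluster, past every 5′ end of it. Its fold enrichment was 48.4 and its pileup 129 fragments (108 to 153), and its summit was 9969 bp past the 5′ end of PCDHGC5 and 13925 bp before the 3′ end that all 22 gamma genes share. A weaker peak followed (chr5:141508858-141509410), with 22 fragments at its summit and a fold of 9.11. Since every gamma gene spans both, neither can be given to one of them. The alpha cluster had no counterpart, as no peak lay in the 45.4 kb between the PCDHAC2 peak and the shared 3′ end of the alpha genes. Exon bounds were not used here, so whether a peak away from a 5′ end is exonic or intronic is not given.

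Most of the clusters' length was without peaks. The longest empty stretch, 184 kb, ran from the PCDHAC2 peak to PCDHB6, across the DNA between the alpha and beta clusters. It held the 5′ ends of 6 beta genes, that of PCDHB6 being 455 bp short of the peak. The next, 167 kb, held all 10 remaining beta genes, from PCDHB7 to PCDHB15 in order along the chromosome. It ran on past the end of the beta cluster to a peak at TAF7, a gene between the beta and gamma clusters. In the gamma cluster 128 kb without a peak held 16 gene starts, from PCDHGB1 to PCDHGA12. In the alpha cluster 103 kb held 8, from PCDHA6 to PCDHA13. These empty stretches are long but not rare in the list, as 5.75% of all gaps between neighbouring peaks were at least as long as the first and 12.9% at least as long as the last. The median gap was 18.7 kb.

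The number of peaks per length was not low. The clusters had 2.29 peaks per 100 kb (exact Poisson 95% confidence interval 1.25 to 3.83), against 1.46 on chromosome 5 and 1.80 over all chromosomes with peaks. The adjoining 1 Mb on the lower side had 4.20 (3.03 to 5.68) and that on the upper side 8 (6.34 to 9.96). So the clusters were poorer in peaks than the DNA on their upper side, whose interval does not overlap theirs, while the interval of the clusters overlaps that of the lower side and includes the values of the chromosome and the genome. By cluster the value was 2.63 for alpha, 1 for beta and 3.25 for gamma, and the intervals of these 3 overlap. Of the 14 cluster peaks, 9 were within 1 kb of a member's 5′ end (64.3%, Wilson interval 38.8% to 83.7%). Over all peaks, with the 15842 protein-coding genes of known strand, the share was 16.9%. These shares are not a like comparison, because the clusters pack 53 gene starts into 613 kb. The 15842 genes are spread over 3.03e+06 kb.

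The promoters of the C-type genes differed in base composition from those of the other members. In the RefSeq windows from 250 bases before to 50 after the start, available for 47 members, the 4 C-type genes had 15 to 27 CpG dinucleotides and the other 43 had 2 to 16. PCDHAC1 had 27, PCDHGC4 had 23, PCDHGC3 had 18 and PCDHAC2 had 15. The ordinary members with a peak had low counts, 5 in PCDHA4, 5 in PCDHA5 and 4 in PCDHGA3, where the median of the ordinary members was 7. PCDHGB6, which had the highest count of them at 16, had no peak, and neither had PCDHGC4. Over all protein-coding genes, the median was 27 CpG in genes with a peak and 7 in genes without one. Of all genes with at least 15 CpG, the lowest count of a C-type member, 80.2% had a peak, beside 3 of the 4 C-type members with a window. That set had no upper bound, and counts over all genes ran up to 69. Of all genes with 16 or fewer, the highest count of the other members, 29.4% had a peak, beside 3 of these 43 members. The ordinary members thus had both a low share and a low CpG count. Neither set of background genes was matched to the members by CpG count, so their shares are a rough guide only. The part of CpG content in either count was not tested.

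**Figure D5:**
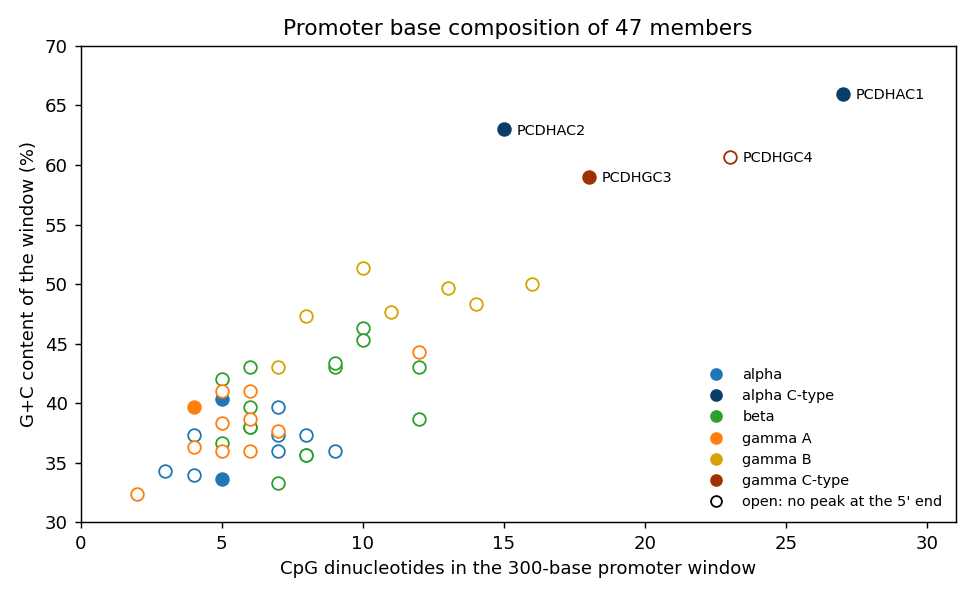
G+C content in percent against the number of CpG dinucleotides in the promoter window of the 47 members with a sequence, coloured by kind of gene, filled where a peak came within 1 kb of the start. The C-type genes, named in the plot, have 15 to 27 CpG and lie apart at 59.0% to 66.0% G+C, and PCDHGC4 is the open symbol among them.

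The ETS core GGAA, searched on both strands, was in 46 of the 47 windows, and PCDHB5 was the exception. The number of cores in a window had a median of 6.5 and a range of 2 to 7 in the 6 members with a peak, and a median of 3 and a range of 0 to 7 in the 41 without one. The ranges overlap, with PCDHGA3 at the low end of the former, and over all protein-coding genes the median was 3 both with and without a peak. The longer form CGGAAG, which contains GGAA, was in 7 of 47 (14.9%), against 25.5% of all protein-coding windows. Of the 6 members with a peak and a window only PCDHA5 held it, and none of the 4 C-type windows did, so that the stretches printed above have the core without the flanking letters. In all protein-coding genes CGGAAG was in 34.1% of windows with a peak and 11.9% of those without. The letters CGCT were in 46 of 47 members' windows, PCDHA9 being the exception, and in 81.0% of all windows. A motif that is absent from a window of this length may lie elsewhere under the peak, in particular for PCDHA4, PCDHA5 and PCDHGA3, whose summits are past the end of the window.

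Compared with other families of tandem genes, the members lay between the extremes. Of the olfactory receptor genes on chromosome 11, which code for odorant receptors and are silent in most tissues, 3 of 135 had a peak at the 5′ end (2.22%, Wilson interval 0.759% to 6.33%). Of the ZNF genes on chromosome 19, which code for zinc finger proteins, 146 of 210 had one (69.5%, 63.0% to 75.4%). Of the HOX genes, which set positions along the body axis, 10 of 20 with a known strand had one (50%, 29.9% to 70.1%). The 6 of 47 members counted in the same way, 12.8% (5.98% to 25.2%), were below the ZNF and HOX genes with no overlap of the intervals, and overlapped slightly with the olfactory receptor genes.

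Other protocadherins, and genes that work with the clustered ones, were looked at by fixed lists. Of 12 protocadherin genes outside the clusters, strand was known for 10, and 4 of these had a peak at the 5′ end. PCDH1, an adhesion protein of epithelia whose gene lies on the same chromosome, had the highest fold enrichment of them, 81.7 with a pileup of 191 fragments. PCDH9 followed with 20.8, PCDH12, a protocadherin of endothelium whose gene is also on chromosome 5, with 13.8 and PCDH7 with 7.93. PCDH8, PCDH11X, PCDH15, PCDH17, PCDH18 and PCDH19 had none. The non-clustered genes thus had peaks at 40.0% (Wilson interval 16.8% to 68.7%), an interval that takes in the background of 61.3%.

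Factors that choose or silence protocadherin promoters had a peak at all 14 of 14 genes with a known strand, of 15 listed. CTCF had a fold enrichment of 37.7, and NIPBL, which loads the cohesin ring onto DNA, had 54.0. Among cohesin subunits, SMC3 had 19.3 and SMC1A 13.2. SMCHD1, a repressor that acts on protocadherin clusters, had 17.1 and DNMT3B, a DNA methyltransferase, had 19.6. The lowest was SETDB1, a histone H3 lysine methyltransferase, with 6.23. Partners of the intracellular part of the proteins had a peak at 9 of 9 genes with a known strand, of 11 listed, among them CTNNB1, the beta-catenin gene, with 32.7, the WAVE complex genes NCKAP1 with 46.2 and CYFIP1 with 33.9, and the receptor gene RET with 14. Both lists were above the background of 61.3%, whereas the clustered genes themselves were below it. The lists consist largely of genes known to be widely expressed. Expression was not measured here, and its part in these shares was not tested.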

How the data were processed

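ChIP-seq peaks of 1 anti-Flag library were analysed, and the input library entered only as the control. Per the labels, the submitters' processing notes name Bowtie2 2.4.1, SAMtools, MACS2 2.2.7.1, deepTools 3.5.0 and hg38. Their parameters and the handling of duplicates are not given in the sources used here. The antibody is one from CST in the methods and one from Sigma in the labels. The deposited narrowPeak list gives for each peak an interval, a fold enrichment (a ratio), a −log10 p-value, a −log10 q-value, a summit and a display score, which the authors' software made from the q-value and which was not used. The calls rest on that single library and pool nothing. The lowest −log10 q was 1.30.

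Genes came from RefSeq on GRCh38.p14 (59679 genes), which is the same build. Strand came from the RefSeq promoter table, which holds 15842 protein-coding genes and 47 members. The other 6 members were taken to run in the plus direction like their neighbours. Summit pileups and control levels were solved from the fold and p-value with a Poisson model and a pseudocount of 1. This gave whole numbers within 0.01 for 100% of peaks, and was tested on 5000 simulated peaks, of which 100% were recovered. The median summit held 26 fragments, which sets the precision. Positions are 1-based. A gene was called when a peak interval lay within 1 kb of its 5′ end. Shares have Wilson and counts exact Poisson 95% intervals, and no test was possible with 1 library.

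The members and lists were chosen with earlier results of these data known. Named were all members with a peak, the 10 cluster peaks of highest fold and the highest of each cluster, genes at or between the clusters, and genes of 3 lists. The other peaks of the 14, the gaps and the CpG ranges were described after their values were seen. Counts by kind of gene were planned, whereas the pooled contrast of C-type genes with the others was not. Alternatives covered stricter fold and q thresholds, other windows and margins, summits for intervals and either gene end. The tools were statsmodels 0.14.6, scipy 1.17.1, matplotlib 3.10.9, pandas 2.3.3 and numpy 2.4.6 under Python 3.11.15.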

Additional observations from a re-analysis of the deposited data

How the results depend on the processing

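With a fold enrichment over 10 required, 9 cluster peaks remained of 14, and 5 members of 8 had a peak at the 5′ end, beside 44.5% of all protein-coding genes with a known strand. The count of C-type genes with a peak, 4 as reported, fell to 2 with a fold over 5 and to 2 with a fold over 10, settings that were added for this count after seeing the data. With a −log10 q over 5 it was 3. The shares of all protein-coding genes at a fold over 5 and at this q were not computed. The falls at these 2 settings therefore cannot be set against a background. The other alternatives left every count within 1.5 times the reported one. The median fold stayed between 11.8 and 14.6, the peaks per 100 kb between 1.47 and 2.31 and the share of cluster peaks at a 5′ end between 57.1% and 71.4%. The density of 1.47 was that with a fold over 10. The densities of chromosome 5 and of all chromosomes were not recomputed at that threshold, so they are no comparison for it. Taking either end of the gene gave the same count of 8 members, beside 62.1% of all 20037 protein-coding genes. No paired analysis was possible because there is 1 library per group. Depth limits the weak peaks, since those at PCDHA4 and PCDHGC5 rest on 11 and 13 fragments, and a gene without a peak may carry signal below the authors' threshold.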

Other observations

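In the 79.1 kb between the beta and gamma clusters, which hold the genes SLC25A2 and TAF7, the list had 1 peak. It covered the 5′ end of TAF7, a subunit of the general transcription factor TFIID, with its summit 5 bp from that end (chr5:141320261-141321216). Its fold enrichment was 31.6 with a pileup of 116 fragments, close to the 31.5 and 119 fragments at PCDHGA3, the nearest member with a peak. The 37.0 kb between the alpha and beta clusters held none. On the lower side of the alpha cluster, the nearest peak (chr5:140718857-140719418) covered VTRNA1-2, which codes for a vault RNA, with a fold enrichment of 15.9. On the upper side of the gamma cluster, the first 2 peaks lay inside DIAPH1, a formin gene that assembles actin, with fold enrichments of 15.0 and 16.3. These genes were named after their values were seen.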
